A study of Mus musculus with 30 samples.

Results

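Transcripts of 40 genes that act in DNA replication or in mitosis were followed through the differentiation of mouse embryonic stem (ES) cells. The members were taken from a written list of S-phase and mitotic genes, 19 for replication and 21 for mitosis. Each was read from the brightest array probe set (ranked by log2 intensity averaged over the 30 arrays) among those that the platform's annotation assigns to that gene alone. All 19 replication genes and 20 of the 21 mitosis genes had such a probe set, 39 of the 18194 genes that were tested. Ccnb1, the gene of cyclin B1, had none and is not analysed here. The ES cells were either Jmj (fl/fl), with floxed alleles and called wild-type in the labels (Fl/Fl here), or the mutant Jmj (-/-), called null here. Jmj is the former name of Jarid2, which encodes a protein that associates with the Polycomb complex PRC2. LIF, the cytokine that keeps mouse ES cells undifferentiated, was withdrawn, and total RNA was taken before withdrawal (day 0) and on days 2, 4, 6 and 8. There were 30 Affymetrix arrays in 10 groups. Fl/Fl cells gave 2 arrays on each day, and null cells gave 3 before withdrawal, 5 on each of days 2, 4 and 6, and 2 on day 8. The labels do not say how many ES cell clones or independent cultures stand behind the null arrays. They call the arrays biological replicates without naming separate cultures, so the p-values below measure the spread between these arrays.

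DNA replication is licensed when the Cdc6 and Cdt1 proteins load the ring-shaped MCM helicase onto origins, and it starts when Cdc45 and the GINS complex turn that helicase on. The genes of this machinery are switched on before S phase by E2F factors. The genes that drive mitosis are switched on later in the cycle by complexes that hold MuvB with B-Myb (the product of Mybl2) or FoxM1. These complexes act through the cell cycle genes homology region (CHR). CCAAT boxes are counted beside it below. Undifferentiated mouse ES cells are known for a short first gap phase, and their cycle lengthens as they differentiate.

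The promoters of the members were read first, because the replication and mitosis genes differ in the sequence letters found there. Of the 39 measured members, 33 had a promoter in the RefSeq table of mouse assembly GRCm38.p6, and 1 of them had 2, so that each set had 17 promoters. The window ran from 250 bases before the start to 50 after it. Letters of an E2F motif (TTCCCGC or TTCGCGC or TTGCCGC or TTGGCGC, on either strand) stood in 10 of the 17 replication promoters, or 58.8% (exact 95% interval 32.9% to 81.6%). They stood in 2 of the 17 mitosis promoters, 11.8% (1.46% to 36.4%), in 9.57% of all 32851 promoters in the table and in 17.9% of the 9572 promoters of genes above the median level. Letters of a CHR (TTTGAA or TTCGAA, either strand) were found in 14 of 17 mitosis promoters, 82.4% (56.6% to 96.2%), in 3 of 17 replication promoters, 17.6%, in 19.2% of all promoters and in 13.6% of those of genes above the median level. In the 250 bases before the start alone, 41.2% of the mitosis promoters held CHR letters against 17.1% of all promoters. Many of the CHR matches of mitosis promoters lie just after the start. In this shorter window E2F letters stood in 41.2% of replication promoters and 7.89% of all promoters. They stood in 14.8% of those of genes above the median level. The 17 replication promoters belong to 16 genes, and the intervals take promoters as independent. The letters CCAAT stood in 82.4% of mitosis, 58.8% of replication and 37.4% of all promoters, and in 37.9% of those of genes above the median level. The TTCGAA form reads the same on both strands and was counted once. A match is a description of letters in this window and does not show binding.

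The 250 bases before the start are printed for a pair of replication genes and a pair of mitosis genes, 5′ to 3′ on the gene's strand. Capitals mark E2F, CHR and CCAAT letters. Mcm5 encodes a subunit of the MCM helicase and lies at chr8:75109259-75109508 on the plus strand. Cdc6 encodes a helicase loader and lies at chr11:98907901-98908150 on the plus strand. Ccnb2 encodes cyclin B2 and lies at chr9:70421555-70421804 on the minus strand. It stands in for Ccnb1, which had no probe set. Plk1 encodes a kinase that drives entry into and exit from mitosis and lies at chr7:122159185-122159434 on the plus strand.
Mcm5: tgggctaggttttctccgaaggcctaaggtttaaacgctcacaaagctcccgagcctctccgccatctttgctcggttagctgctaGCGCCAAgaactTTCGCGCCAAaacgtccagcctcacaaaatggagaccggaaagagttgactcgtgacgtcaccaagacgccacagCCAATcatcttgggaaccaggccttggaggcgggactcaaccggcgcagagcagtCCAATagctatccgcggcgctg
Cdc6: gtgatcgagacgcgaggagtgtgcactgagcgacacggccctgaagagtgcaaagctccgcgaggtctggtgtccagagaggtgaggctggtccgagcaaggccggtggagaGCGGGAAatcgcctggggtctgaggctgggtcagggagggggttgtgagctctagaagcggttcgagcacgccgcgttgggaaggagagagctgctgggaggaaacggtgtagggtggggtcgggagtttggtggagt
Ccnb2: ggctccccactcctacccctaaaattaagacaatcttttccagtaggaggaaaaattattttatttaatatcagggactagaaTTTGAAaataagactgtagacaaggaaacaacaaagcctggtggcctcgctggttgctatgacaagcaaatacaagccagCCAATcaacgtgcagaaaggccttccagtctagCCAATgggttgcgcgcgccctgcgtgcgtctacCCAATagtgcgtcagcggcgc
Plk1: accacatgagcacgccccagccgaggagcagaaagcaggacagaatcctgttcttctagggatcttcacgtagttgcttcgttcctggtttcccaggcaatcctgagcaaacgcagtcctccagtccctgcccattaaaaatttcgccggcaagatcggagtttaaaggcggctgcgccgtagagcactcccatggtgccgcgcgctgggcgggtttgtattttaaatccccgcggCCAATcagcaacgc
Mcm5 held 3 E2F matches, of which the pair that begins at -152 and -149 from the start overlap, and Cdc6 held 1. Ccnb2 and Plk1 held no E2F letters in this window, and 3 and 1 CCAAT boxes. Ccnb2 also held CHR letters from -167 on.

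The CHR match nearest to the start is shown for 6 mitosis genes, as a window of 30 bases with the CHR in capitals. Its first base lies 5 bases after the start in Ccnb2 (chr9:70421533-70421562, minus strand), 31 after it in Plk1 (chr7:122159453-122159482, plus strand) and 33 after it in Aurka (chr2:172370521-172370550, minus strand). It lies 15 bases after the start in Bub1 (chr2:127831828-127831857, minus strand), 3 after it in Kif23 (chr9:61946780-61946809, minus strand) and 18 before it in Cdc20 (chr4:118437344-118437373, minus strand).
Ccnb2: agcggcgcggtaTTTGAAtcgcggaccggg
Plk1: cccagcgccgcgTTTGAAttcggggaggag
Aurka: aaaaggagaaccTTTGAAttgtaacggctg
Bub1: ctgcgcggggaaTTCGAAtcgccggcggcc
Kif23: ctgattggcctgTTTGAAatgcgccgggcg
Cdc20: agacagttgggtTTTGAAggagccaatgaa
In 5 of these windows the letters are TTTGAA and in Bub1 they are TTCGAA.

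The arrays had mean intensities between 331.8 and 363.6. Jarid2 itself gave signal in both genotypes. Its brightest probe set read 3335 to 3340 at Fl/Fl day 0 and 2872 to 4082 at null day 0, 709 to 710 and 1257 to 1470 at day 4, and 481 to 589 and 781 to 1206 at day 6, so that the null arrays were the higher at days 4 and 6. How the alleles were mutated is not given in the labels, so this level does not check them. The null arrays fell into 3 sets by Eif2s3y, a Y-linked gene. It read 594 to 981 on 11 null arrays, 217 to 365 on 5 and 11 to 16 on 4, against 130 to 234 on the Fl/Fl arrays. The grouping was made with the Eif2s3y values in view. The actin ratio (3′ over 5′ probe sets), which reflects RNA quality, was 1.288 to 1.43 in the high Eif2s3y set and 1.48 to 2.037 on all other arrays. The summed level of 10 ES cell markers checked the cells: it was 68747 to 73690 at Fl/Fl day 0 and 57962 to 69723 at null day 0, and was 4470 to 4961 and 14220 to 21287 at day 6. The brightest markers weigh most in such a sum. On the log2 scale the median marker changed from day 0 to day 6 by -4.81 in Fl/Fl and -5.16 in null. Null minus Fl/Fl at day 6 ran from -3.17 to 3.19, with 4 markers lower in null and 6 higher. The pair of null day 8 arrays differed from each other more than any other pair of replicates (Pearson's r of 0.9631 across probe sets, against 0.9827 or more elsewhere), and they are described apart.

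In Fl/Fl cells the replication genes went down first and the mitosis genes followed. Differences are given on the log2(intensity + 4) scale, and calls are limma's moderated test at an adjusted p under 0.05 over all 18194 genes. Against Fl/Fl day 0 the median replication member changed by -0.09, -0.83, -1.37 and -2.13 on days 2, 4, 6 and 8, the last a 4.39-fold fall. The median mitosis member changed by -0.08, -0.25, -1 and -1.85, the last a 3.61-fold fall. The median over all genes stayed between -0.06 and 0. In null cells the replication median was -0.09, -0.31 and -0.76 at days 2, 4 and 6, and the mitosis median was -0.03, -0.13 and -0.15. In bulk RNA, fewer cycling cells and less of these transcripts in each cell cannot be told apart.

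**Figure D1:**
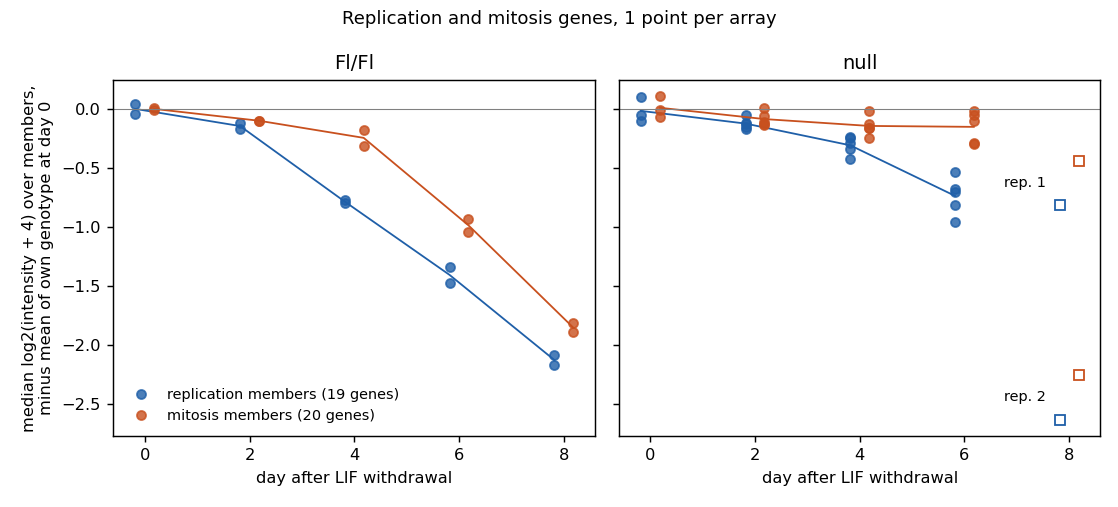
Median over the 19 replication members (blue) and the 20 mitosis members (orange) of log2(intensity + 4) minus the day 0 mean of the same genotype, 1 point per array against days after LIF withdrawal. Lines join group means, and open squares are the null day 8 arrays. Fl/Fl replication medians lie at -0.80 and -0.77 on day 4, when the mitosis medians lie at -0.31 and -0.18, and null mitosis medians stay between -0.30 and -0.02 on day 6.

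Called members followed the same order. In Fl/Fl cells, 1 replication and 0 mitosis members had fallen at day 2 (1.91% of all genes were called lower), 7 and 1 at day 4 (10.5% of all genes), 13 and 13 at day 6 (19.2%) and 16 and 19 at day 8 (18.6%). The mitosis count of 0 at day 2 stood at 0 at an unadjusted p under 0.05 too. In null cells the counts were 2 and 0 at day 2 (3.02% of all genes), 3 and 0 at day 4 (8.34%) and 11 and 3 at day 6 (18%); at an unadjusted p under 0.05 the mitosis counts were 1 and 1 at days 2 and 4 in either direction. At Fl/Fl day 4 leaving out any 1 of the 4 arrays compared left 4 replication members and 0 mitosis members. At Fl/Fl day 6 the mitosis count was 8 without replicate 2 of that day. At null day 2 it was E2f1 and Mybl2 that fell, and 1 remained without replicate 1 or 3 of null day 0 or replicate 1, 3 or 5 of null day 2.

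The disagreement of the null day 8 arrays also widened the errors of all other comparisons, since the fit shares 1 estimate of the spread. The median standard error of the members for a Fl/Fl change was 0.308 with all 30 arrays and 0.168 without the null day 8 arrays, and 0.179 over all genes with all arrays. Without them, replication and mitosis members called lower were 3 and 2 at Fl/Fl day 2 (2.3% of all genes), 12 and 6 at day 4 (12.1%), 16 and 17 at day 6 (20.3%) and 18 and 19 at day 8 (19.3%). In null cells they were 3 and 1 at day 2 (3.67%), 10 and 5 at day 4 (9.34%) and 14 and 7 at day 6 (19%). Leaving out either array alone gave the same counts for days 2 and 4, since a group of 1 array adds no spread.

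The start of the decline was the first day on which a member was called lower and remained so on every later day, to day 8 in Fl/Fl and to day 6 in null. Among the 19 replication members in Fl/Fl cells it began at day 2 for 1 (Mybl2), at day 4 for 6 (Mcm2, Mcm3, Mcm5, Mcm7, Cdt1 and E2f1), at day 6 for 6 and at day 8 for 3, and 3 (Gins2, Tyms and Tk1) had no start. Among the 20 mitosis members it began at day 4 for 1 (Bub1b), at day 6 for 12 and at day 8 for 6, and Foxm1 had no start. In null cells the replication decline began at day 2 for E2f1 and Mybl2, at day 4 for Cdt1 and at day 6 for 8, and 8 had no start by day 6. Among mitosis members it began at day 6 for Aurka, Bub1b and Ttk, and 17 had no start by day 6. With all 30 arrays, mitosis calls at Fl/Fl day 4 and null day 6 were under the shares of all genes, 10.5% and 18%. Without the null day 8 arrays they were 30% and 35% of the mitosis members, against 12.1% and 19% of all genes. Null contrasts had the smaller errors, with a median of 0.225 against 0.308 in Fl/Fl. A start that differs between genotypes does not by itself show that the changes differ; that test is given below.

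Other definitions of a start moved the days earlier, and where it was set by separate arrays the sets differed little in Fl/Fl cells. With a start at a 1.5-fold lower group mean, replication members in Fl/Fl began at day 2 for 3, day 4 for 8 and day 6 for 6, and mitosis members for 2, 3 and 11, with 3 more at day 8. In null the same definition gave 2, 3 and 8 replication members at days 2, 4 and 6 and 0, 0 and 2 mitosis members. With a start where every array lay below every day 0 array, Fl/Fl replication members began at day 2 for 9 and day 4 for 7, mitosis members for 9 and 5. Counted by day alone, 9 replication and 9 mitosis members lay so at Fl/Fl day 2 (17.2% of all genes). At Fl/Fl day 4 it was 16 and 14 (27.4%). In null cells starts by this definition at days 2, 4 and 6 numbered 5, 4 and 4 for replication and 1, 3 and 1 for mitosis. Counted by day alone, 5 replication and 4 mitosis members lay so at null day 2 (5.23% of all genes). At null day 4 it was 10 and 5 (8.39%), and at null day 6 it was 13 and 5 (16.6%). By the fit without the null day 8 arrays, starts at days 2, 4, 6 and 8 numbered 3, 9, 4 and 2 for replication and 2, 4, 11 and 2 for mitosis in Fl/Fl, and 3, 7 and 4 against 1, 4 and 2 to day 6 in null. Comparing each member's start over days 2 to 6, 6 replication members began earlier in Fl/Fl, 6 on the same day, 1 (E2f1) earlier in null and 6 in neither. For E2f1 the Fl/Fl difference at day 2 was -0.96 ± 0.327 (SE), adjusted p = 0.122, not called, beside -0.87 ± 0.239 (SE), adjusted p = 0.0322 in null, and both other definitions start it at day 2 in both genotypes. For mitosis 11 began earlier in Fl/Fl, 2 on the same day, 0 earlier in null and 7 in neither. Starts were not counted over all genes, so these counts do not show that an earlier start is particular to the members.

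**Figure D2:**
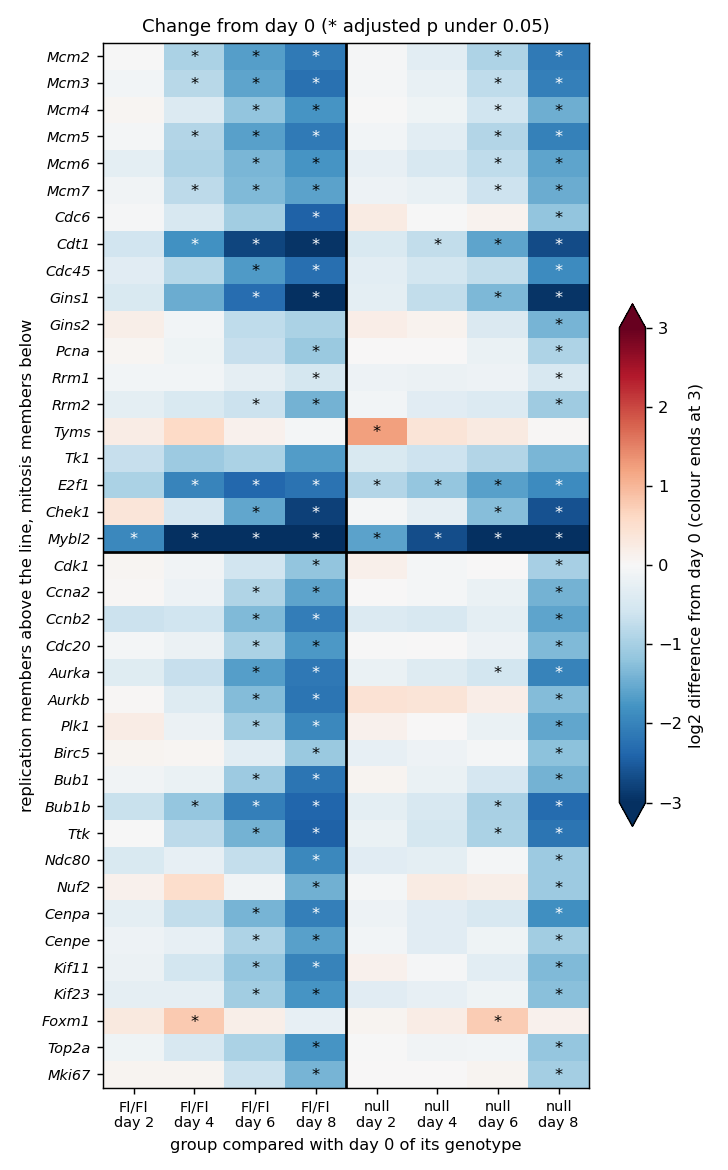
Log2 difference from day 0 of the same genotype for each of the 39 members (rows) in the 8 later groups (columns), blue for lower and red for higher, with an asterisk where the adjusted p was under 0.05. Replication members stand above the line and mitosis members below. Blue reaches most replication rows by Fl/Fl day 4, and the null day 6 column is pale for the mitosis rows, with 3 called lower and 1 higher.

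Among regulators of S phase, Mybl2, which encodes the B-Myb transcription factor, had the largest fall of any member in either genotype at days 2, 4, 6 and 8. On Fl/Fl arrays Mybl2 read 5144 and 5252 before withdrawal, 1293 and 1436 on day 2, 348 and 381 on day 4, 163 and 166 on day 6, and 202 and 166 on day 8. On null arrays it read 5447, 4097 and 4390 before withdrawal, 1382, 1957, 1205, 1643 and 1501 on day 2, 582, 509, 935, 889 and 834 on day 4, 289, 284, 311, 364 and 418 on day 6, and 163 and 70 on day 8. Its levels separated day 0 from every later day, and it had fallen by -1.93 ± 0.308 (SE), adjusted p = 0.000747 at Fl/Fl day 2 (limma, as for every adjusted p here) and -1.60 ± 0.225 (SE), adjusted p = 8.62e-05 at null day 2. At days 4 and 6 all null Mybl2 arrays lay above both Fl/Fl arrays. E2f1 encodes an activator of S-phase genes. On Fl/Fl arrays E2f1 read 429 and 333 before withdrawal, 178 and 207 on day 2, 89 and 98 on day 4, 79 and 63 on day 6, and 83 and 74 on day 8. On null arrays it read 345, 250 and 254 before withdrawal, 137, 192, 120, 180 and 137 on day 2, 160, 119, 123, 119 and 106 on day 4, 119, 115, 73, 63 and 82 on day 6, and 115 and 45 on day 8. E2f1 was lower on every array from day 2 on than on any day 0 array of its genotype, and the called fall was -1.97 ± 0.327 (SE), adjusted p = 0.000197 at Fl/Fl day 4 and -0.87 ± 0.239 (SE), adjusted p = 0.0322 at null day 2. Chek1, the gene of the checkpoint kinase that guards unfinished replication, fell later, by -1.57 ± 0.325 (SE), adjusted p = 0.000852 at Fl/Fl day 6 and -1.27 ± 0.237 (SE), adjusted p = 0.000292 at null day 6.

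All 6 genes of the MCM helicase fell by day 6 in both genotypes. At Fl/Fl day 4 their differences ranged from -0.95 to -0.41 and 4 were called. At null day 4 they ranged from -0.48 to -0.12 and 0 were called. Mcm2, on Fl/Fl arrays, read 3447 and 3647 before withdrawal, 3243 and 3767 on day 2, 1794 and 1876 on day 4, 1170 and 1077 on day 6, and 822 and 787 on day 8. On null arrays Mcm2 read 3710, 4050 and 3770 before withdrawal, 3564, 3614, 3924, 3915 and 3738 on day 2, 3131, 2764, 3037, 3380 and 3223 on day 4, 2123, 1793, 1929, 2147 and 2074 on day 6, and 1336 and 581 on day 8. The day 4 arrays do not overlap between genotypes, and neither do the day 6 arrays. Mcm2 had fallen by -0.95 ± 0.206 (SE), adjusted p = 0.00239 at Fl/Fl day 4 and by -0.93 ± 0.15 (SE), adjusted p = 5.51e-05 at null day 6. On Fl/Fl arrays Mcm5 read 10711 and 12281 before withdrawal, 10673 and 11252 on day 2, 5983 and 6465 on day 4, 3886 and 3514 on day 6, and 2715 and 2506 on day 8. On null arrays Mcm5 read 12078, 9761 and 10798 before withdrawal, 9989, 11521, 10176, 9864 and 9532 on day 2, 9194, 8125, 9015, 8866 and 8606 on day 4, 7091, 5634, 5245, 5838 and 5727 on day 6, and 4898 and 1456 on day 8. At day 4 its null arrays were all above the Fl/Fl ones, with -0.88 ± 0.294 (SE), adjusted p = 0.0402 against day 0 in Fl/Fl and -0.88 ± 0.215 (SE), adjusted p = 0.00332 by null day 6. Mcm7 on Fl/Fl arrays read 10050 and 10626 before withdrawal, 9479 and 9667 on day 2, 6044 and 5947 on day 4, 4076 and 4167 on day 6, and 3588 and 3240 on day 8. In null cells Mcm7 read 10612, 10737 and 10063 before withdrawal, 8612, 9318, 9912, 9659 and 9413 on day 2, 8558, 7911, 9543, 9682 and 9365 on day 4, 7242, 6545, 6245, 7076 and 6995 on day 6, and 6049 and 2338 on day 8. Its Fl/Fl level was below day 0 by -0.79 ± 0.228 (SE), adjusted p = 0.0195 at day 4. For Mcm3 the Fl/Fl arrays read 4451 and 4589 before withdrawal, 4526 and 4003 on day 2, 2489 and 2604 on day 4, 1544 and 1454 on day 6, and 990 and 907 on day 8, and its fall was called from day 4 (adjusted p = 0.0431). Its null arrays read 3943, 4445 and 4637 before withdrawal, 3727, 4154, 4262, 4421 and 4276 on day 2, 3379, 3232, 4056, 4027 and 3976 on day 4, 2743, 2148, 2615, 2578 and 2672 on day 6, and 1829 and 585 on day 8, with the fall called at day 6 (adjusted p = 0.00647).

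The genes that load and fire origins fell unevenly. Cdt1, the loader that is destroyed once S phase begins, fell most of the 5 at days 4 and 6 in Fl/Fl cells. Its Fl/Fl arrays read 4228 and 4070 before withdrawal, 2642 and 2919 on day 2, 1161 and 1186 on day 4, 635 and 588 on day 6, and 540 and 526 on day 8. Its null arrays read 4090, 3525 and 3607 before withdrawal, 2538, 2926, 2738, 2795 and 2546 on day 2, 1958, 1707, 2594, 2727 and 2363 on day 4, 1411, 1062, 1180, 1259 and 1319 on day 6, and 1001 and 334 on day 8. Null and Fl/Fl arrays overlapped at day 2 and not at days 4 or 6. The fall was -1.82 ± 0.29 (SE), adjusted p = 0.00013 at Fl/Fl day 4 and -0.74 ± 0.212 (SE), adjusted p = 0.0209 at null day 4. Cdc6 on Fl/Fl arrays read 652 and 838 before withdrawal, 792 and 656 on day 2, 528 and 526 on day 4, 395 and 320 on day 6, and 135 and 135 on day 8. On null arrays Cdc6 read 820, 641 and 778 before withdrawal, 728, 742, 917, 1049 and 1001 on day 2, 727, 627, 811, 701 and 828 on day 4, 861, 552, 813, 953 and 891 on day 6, and 818 and 128 on day 8. Its fall was called only at day 8, by -2.42 ± 0.463 (SE), adjusted p = 0.000297 in Fl/Fl, and at null day 6 the difference from day 0 was 0.11 ± 0.338 (SE), adjusted p = 0.954. Gins1, a GINS subunit, had the largest fall of this group at day 8, -3.23 ± 0.604 (SE), adjusted p = 0.000234 in Fl/Fl. Its arrays read 699 and 762 before withdrawal, 503 and 567 on day 2, 242 and 272 on day 4, 151 and 143 on day 6, and 118 and 46 on day 8 in Fl/Fl cells. Its null arrays read 817, 545 and 628 before withdrawal, 489, 600, 523, 558 and 515 on day 2, 333, 393, 425, 395 and 424 on day 4, 343, 272, 186, 238 and 265 on day 6, and 280 and 22 on day 8. Cdc45 fell by -1.69 ± 0.405 (SE), adjusted p = 0.00297 at Fl/Fl day 6 and stood at -0.74 ± 0.296 (SE), adjusted p = 0.0631 at null day 6. Gins2 was not called in Fl/Fl cells in the fit of all arrays, with -0.95 ± 0.414 (SE), adjusted p = 0.0873 at day 8.

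The sliding clamp and the genes of nucleotide supply had the smallest median change of the replication roles, -0.65 at Fl/Fl day 6 and -0.20 at null day 6, against -1.48 and -0.77 for the MCM genes. Pcna encodes the clamp that holds polymerases on DNA. On Fl/Fl arrays Pcna read 10008 and 9320 before withdrawal, 9519 and 10445 on day 2, 8706 and 8857 on day 4, 6121 and 5908 on day 6, and 4568 and 4359 on day 8. On null arrays it read 8774, 9941 and 10133 before withdrawal, 10017, 10215, 9674, 9579 and 9214 on day 2, 9985, 10544, 9178, 9425 and 9200 on day 4, 10171, 9007, 7466, 7630 and 7705 on day 6, and 8814 and 2916 on day 8. Its fall was called at day 8 only, by -1.11 ± 0.27 (SE), adjusted p = 0.00265 in Fl/Fl. Rrm1 and Rrm2 encode the subunits of ribonucleotide reductase. Rrm2 on Fl/Fl arrays read 7231 and 8634 before withdrawal, 6344 and 6610 on day 2, 5631 and 5917 on day 4, 5216 and 4833 on day 6, and 3192 and 2759 on day 8. Rrm2 on null arrays read 7823, 5961 and 6354 before withdrawal, 7088, 6470, 5930, 5965 and 6038 on day 2, 5355, 5821, 4904, 4990 and 5195 on day 4, 5892, 5973, 4354, 4670 and 4497 on day 6, and 4842 and 2069 on day 8. The Rrm2 day 6 arrays overlap between the genotypes and the difference was 0.00 ± 0.2 (SE), adjusted p = 1.0. Rrm1 had the smallest called fall at Fl/Fl day 8, by -0.52 ± 0.166 (SE), adjusted p = 0.0187, and its Fl/Fl arrays read 1326 and 1531 before withdrawal, 1316 and 1377 on day 2, 1310 and 1371 on day 4, 1235 and 1149 on day 6, and 956 and 1027 on day 8. Its null arrays read 1344, 1424 and 1287 before withdrawal, 1198, 1304, 1237, 1207 and 1128 on day 2, 1423, 1194, 1158, 1139 and 1086 on day 4, 1442, 1256, 1170, 1126 and 1135 on day 6, and 1288 and 735 on day 8. Tk1, thymidine kinase, had no call in any comparison in the fit of all arrays, where it stood at -1.67 at Fl/Fl day 8. Without the null day 8 arrays, 18 of the 19 replication members were called lower at Fl/Fl day 8. Those not called there with all arrays were Gins2, Tyms and Tk1, and Tyms stood at -0.07. Tk1 therefore owed its missing Fl/Fl day 8 call to the fit with those null arrays. Its Fl/Fl arrays read 536 and 535 before withdrawal, 306 and 362 on day 2, 268 and 237 on day 4, 309 and 246 on day 6, and 176 and 155 on day 8. On null arrays Tk1 read 752, 481 and 508 before withdrawal, 492, 603, 353, 337 and 340 on day 2, 717, 424, 252, 267 and 319 on day 4, 622, 370, 222, 218 and 256 on day 6, and 622 and 73 on day 8. At null day 4 they ran from 252 to 717, a range that takes in 2 of the 3 day 0 values.

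Tyms, thymidylate synthase, was the 1 replication member that was called higher. Its probe set was dim. Tyms read 36 and 35 before withdrawal, 36 and 49 on day 2, 53 and 58 on day 4, 49 and 31 on day 6, and 33 and 34 on day 8 on Fl/Fl arrays. It read 38, 36 and 46 before withdrawal, 97, 113, 99, 101 and 83 on day 2, 73, 47, 48, 48 and 52 on day 4, 54, 58, 44, 44 and 45 on day 6, and 52 and 32 on day 8 on null arrays. All 5 null day 2 arrays were above every other array, by 1.22 ± 0.16 (SE), adjusted p = 3.94e-05 against null day 0 and 1.15 ± 0.184 (SE), adjusted p = 0.00337 against Fl/Fl day 2, where the call was lost without Fl/Fl day 2 replicate 1. With the second brightest Tyms probe set the null day 2 difference was 0.08 (adjusted p = 0.814) and the difference from Fl/Fl 0.09 (adjusted p = 0.967), so both calls rest on 1 probe set. Of all genes, 2.4% were called higher at null day 2 than at null day 0, and 0.104% higher in null than in Fl/Fl at day 2.

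Mitosis genes held their level longer. The mitotic kinase Cdk1 and its cyclins Ccna2 and Ccnb2 stood between -0.60 and -0.10 at Fl/Fl day 4 with 0 called, and 3 of these 4 genes, counted with the anaphase activator Cdc20, had fallen at day 6. Cdk1 on Fl/Fl arrays read 3150 and 3193 before withdrawal, 3105 and 3471 on day 2, 2939 and 2981 on day 4, 2053 and 2176 on day 6, and 1419 and 1360 on day 8. On null arrays Cdk1 read 3356, 3164 and 2900 before withdrawal, 3504, 3565, 3270, 3606 and 3481 on day 2, 3551, 3432, 2560, 2820 and 2766 on day 4, 3524, 3059, 3048, 2952 and 3087 on day 6, and 2534 and 961 on day 8. Null arrays of days 2, 4 and 6 overlapped those of day 0, and the first called fall was at day 8, -1.19 ± 0.245 (SE), adjusted p = 0.000608 in Fl/Fl. Ccnb2 on Fl/Fl arrays read 1422 and 1140 before withdrawal, 783 and 853 on day 2, 809 and 873 on day 4, 512 and 503 on day 6, and 286 and 312 on day 8. On null arrays Ccnb2 read 1263, 1376 and 1413 before withdrawal, 904, 859, 1064, 1125 and 1109 on day 2, 1002, 1139, 898, 925 and 926 on day 4, 1289, 1100, 958, 1082 and 1118 on day 6, and 927 and 213 on day 8. Its Fl/Fl arrays lay below those of day 0 from day 2 on, and it was called lower at day 6 by -1.32 ± 0.354 (SE), adjusted p = 0.00666; at null day 6 the difference from day 0 was -0.29 ± 0.259 (SE), adjusted p = 0.468. Cdc20 in Fl/Fl cells read 5888 and 7236 before withdrawal, 6612 and 5968 on day 2, 5637 and 5873 on day 4, 3560 and 3225 on day 6, and 2100 and 1863 on day 8. Cdc20 in null cells read 6157, 7717 and 7479 before withdrawal, 6933, 6168, 6932, 7573 and 7458 on day 2, 5951, 6085, 8166, 7840 and 8086 on day 4, 5399, 5282, 7073, 7190 and 7120 on day 6, and 2998 and 2625 on day 8. Cdc20 fell by -0.95 ± 0.176 (SE), adjusted p = 0.000312 at Fl/Fl day 6.

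Of the kinases Aurka, Aurkb and Plk1 and the passenger protein gene Birc5 (survivin), 3 fell at Fl/Fl day 6 and 1 at null day 6. Aurka, the centrosome kinase, read 1688 and 1723 before withdrawal, 1262 and 1369 on day 2, 1050 and 1049 on day 4, 552 and 523 on day 6, and 375 and 388 on day 8 in Fl/Fl cells. In null cells it read 2022, 1462 and 1506 before withdrawal, 1477, 1586, 1424, 1350 and 1404 on day 2, 1389, 1199, 1208, 1301 and 1205 on day 4, 1321, 980, 1053, 1130 and 1159 on day 6, and 697 and 235 on day 8. It fell by -1.66 ± 0.271 (SE), adjusted p = 8.62e-05 at Fl/Fl day 6 and by -0.55 ± 0.198 (SE), adjusted p = 0.0404 at null day 6. Aurkb, the kinase of the chromosomal passenger complex, read 244 and 243 before withdrawal, 271 and 230 on day 2, 179 and 193 on day 4, 104 and 89 on day 6, and 60 and 42 on day 8 on Fl/Fl arrays. Aurkb read 215, 212 and 225 before withdrawal, 302, 366, 229, 328 and 264 on day 2, 299, 324, 272, 252 and 278 on day 4, 348, 227, 193, 232 and 265 on day 6, and 231 and 30 on day 8 on null arrays. Its null values at days 2 to 6 were on average above those of day 0, with 0.19 ± 0.352 (SE), adjusted p = 0.811 at day 6. Plk1 on Fl/Fl arrays read 1252 and 1633 before withdrawal, 1569 and 1806 on day 2, 1260 and 1269 on day 4, 726 and 664 on day 6, and 414 and 335 on day 8. Plk1 on null arrays read 1679, 1438 and 1140 before withdrawal, 1641, 1688, 1439, 1433 and 1499 on day 2, 1729, 1451, 1283, 1301 and 1304 on day 4, 1455, 1180, 984, 1270 and 1307 on day 6, and 700 and 314 on day 8. Its Fl/Fl arrays separated from day 0 at day 6, by -1.04 ± 0.253 (SE), adjusted p = 0.0033. Birc5 read 2746 and 3056 before withdrawal, 2850 and 3283 on day 2, 2796 and 3308 on day 4, 2408 and 2248 on day 6, and 1418 and 1246 on day 8 in Fl/Fl cells. In null cells Birc5 read 4154, 4472 and 4460 before withdrawal, 3054, 3677, 3708, 4020 and 3919 on day 2, 3782, 3210, 3868, 4514 and 4226 on day 4, 4082, 3125, 4136, 4948 and 5011 on day 6, and 4231 and 826 on day 8. Its fall was called only at day 8 in both genotypes.

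Spindle checkpoint and kinetochore genes included the earliest call among the mitosis members. Bub1b, which encodes the checkpoint protein BubR1, read 1396 and 1426 before withdrawal, 794 and 1000 on day 2, 646 and 606 on day 4, 342 and 337 on day 6, and 241 and 301 on day 8 on Fl/Fl arrays. On null arrays it read 1542, 1306 and 1246 before withdrawal, 1097, 1097, 1093, 1158 and 1113 on day 2, 1204, 1036, 885, 917 and 892 on day 4, 933, 660, 633, 671 and 608 on day 6, and 566 and 129 on day 8. Its null arrays were below every null day 0 array on each later day, and the called falls were -1.17 ± 0.365 (SE), adjusted p = 0.0298 at Fl/Fl day 4 and -0.97 ± 0.267 (SE), adjusted p = 0.00835 at null day 6. Ttk, the checkpoint kinase Mps1, had the largest fall of the mitosis set at Fl/Fl day 8, -2.43 ± 0.348 (SE), adjusted p = 1.26e-05. Its Fl/Fl arrays read 705 and 792 before withdrawal, 686 and 791 on day 2, 456 and 408 on day 4, 296 and 263 on day 6, and 145 and 127 on day 8. Its null arrays read 956, 742 and 699 before withdrawal, 708, 814, 594, 721 and 644 on day 2, 558, 579, 490, 522 and 588 on day 4, 409, 346, 424, 402 and 452 on day 6, and 352 and 83 on day 8, and its fall at null day 6 was -0.96 ± 0.254 (SE), adjusted p = 0.00632. Bub1 on Fl/Fl arrays read 1092 and 1077 before withdrawal, 1011 and 994 on day 2, 914 and 959 on day 4, 579 and 452 on day 6, and 247 and 223 on day 8. Bub1 on null arrays read 1280, 1157 and 1065 before withdrawal, 1318, 1177, 1145, 1305 and 1278 on day 2, 1181, 1463, 843, 824 and 918 on day 4, 1187, 999, 602, 734 and 712 on day 6, and 905 and 210 on day 8. The Bub1 arrays of null day 6 overlapped with those of null day 0, with -0.50 ± 0.299 (SE), adjusted p = 0.23. Cenpa, the centromeric histone gene, read 2608 and 2213 before withdrawal, 1913 and 2022 on day 2, 1388 and 1498 on day 4, 954 and 859 on day 6, and 595 and 553 on day 8 in Fl/Fl cells. Cenpa in null cells read 2129, 2356 and 2522 before withdrawal, 2215, 2004, 1933, 2157 and 2136 on day 2, 1906, 1966, 1765, 1844 and 1800 on day 4, 2059, 1635, 1420, 1616 and 1659 on day 6, and 1236 and 344 on day 8. It fell by -1.40 ± 0.308 (SE), adjusted p = 0.0014 at Fl/Fl day 6 and stood at -0.48 ± 0.225 (SE), adjusted p = 0.113 at null day 6. Ndc80 and Nuf2, subunits of the kinetochore's microtubule anchor, were called lower at day 8 only. Nuf2 read 78 and 67 before withdrawal, 87 and 74 on day 2, 93 and 122 on day 4, 78 and 57 on day 6, and 24 and 24 on day 8 in Fl/Fl cells. In null cells Nuf2 read 85, 87 and 94 before withdrawal, 84, 88, 100, 77 and 81 on day 2, 99, 91, 116, 113 and 108 on day 4, 89, 78, 114, 98 and 128 on day 6, and 81 and 18 on day 8. Its Fl/Fl difference of -0.11 ± 0.353 (SE), adjusted p = 0.961 at day 6 was the smallest decrease of the mitosis set.

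The motor genes Kif11 and Kif23 both fell at Fl/Fl day 6 and neither was called at null day 6. Kif23, needed to complete cytokinesis, read 877 and 847 before withdrawal, 695 and 721 on day 2, 675 and 771 on day 4, 402 and 424 on day 6, and 236 and 268 on day 8 in Fl/Fl cells. In null cells Kif23 read 924, 643 and 740 before withdrawal, 592, 670, 529, 624 and 623 on day 2, 600, 547, 694, 702 and 687 on day 4, 640, 616, 678, 753 and 818 on day 6, and 410 and 247 on day 8. From day 4 to day 6 the Fl/Fl arrays went from 675 and 771 to 402 and 424, whereas the null arrays of both days overlapped. Top2a, the topoisomerase that untangles chromosomes, read 3758 and 3641 before withdrawal, 3356 and 3411 on day 2, 2590 and 2681 on day 4, 2038 and 1764 on day 6, and 1171 and 992 on day 8 in Fl/Fl cells. In null cells Top2a read 4723, 3592 and 3693 before withdrawal, 3432, 4608, 3504, 4242 and 3941 on day 2, 5339, 3302, 3147, 3477 and 3580 on day 4, 4880, 2971, 3427, 3971 and 3833 on day 6, and 4149 and 760 on day 8. Mki67, the gene of the Ki-67 proliferation antigen, read 1037 and 1128 before withdrawal, 1155 and 1144 on day 2, 1063 and 1226 on day 4, 710 and 669 on day 6, and 371 and 451 on day 8 in Fl/Fl cells. In null cells Mki67 read 1104, 1199 and 1105 before withdrawal, 1099, 1133, 1184, 1117 and 1198 on day 2, 1260, 1231, 1101, 1060 and 1088 on day 4, 1336, 1072, 1190, 1227 and 1251 on day 6, and 1043 and 299 on day 8. Null Mki67 arrays of days 0 to 6 ranged from 1060 to 1336 with no separation between days. Both genes were called lower only at day 8, Mki67 by -1.39 ± 0.295 (SE), adjusted p = 0.000785 in Fl/Fl.

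Foxm1, the transcription factor gene of the late cycle, went the other way. Foxm1 read 137 and 185 before withdrawal, 164 and 233 on day 2, 260 and 297 on day 4, 163 and 200 on day 6, and 121 and 146 on day 8 on Fl/Fl arrays. It read 158, 163 and 119 before withdrawal, 165, 161, 164, 163 and 125 on day 2, 162, 163, 164, 203 and 167 on day 4, 230, 253, 259, 283 and 226 on day 6, and 163 and 155 on day 8 on null arrays. Its Fl/Fl high was at day 4, 0.79 ± 0.182 (SE), adjusted p = 0.00396, and its null high at day 6, 0.76 ± 0.133 (SE), adjusted p = 0.000134. At day 4 the null arrays were below the Fl/Fl arrays by -0.69 ± 0.152 (SE), adjusted p = 0.00468. The share of all genes called higher than day 0 was 8.01% at Fl/Fl day 4 and 12.2% at null day 6, and 7.43% were lower in null than in Fl/Fl at day 4. Each of its other brighter probe sets pointed up as well, by 0.50 and 0.93 at Fl/Fl day 4 and by 0.72 and 0.82 at null day 6.

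**Figure D3:**
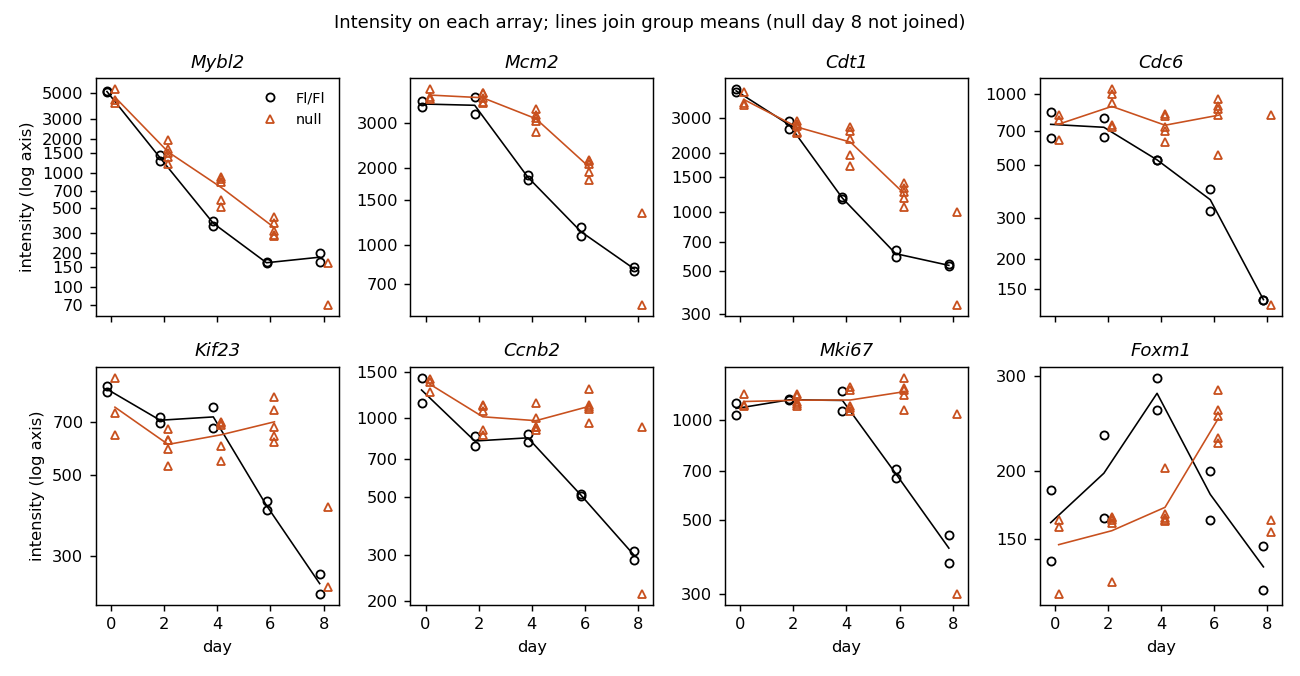
Intensity on each array (log axis) against day for 4 replication genes (upper row) and 4 mitosis genes (lower row), circles for Fl/Fl and triangles for null. Lines join group means, and the null day 8 arrays are not joined. Mybl2, Mcm2 and Cdt1 go down in both genotypes with null above Fl/Fl at days 4 and 6, the null day 6 arrays of Cdc6, Kif23, Ccnb2 and Mki67 overlap those of null day 0 although null Ccnb2 lies below it on days 2 and 4, and Foxm1 has its high at day 4 in Fl/Fl and at day 6 in null.

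Between the genotypes, no member was called at day 0, and members that were called at days 4 and 6 were higher in null cells, with Foxm1 as the 1 exception. At day 0, 0 replication and 0 mitosis members were called in either direction, and 0 of either at an unadjusted p under 0.05 (0.247% of all genes were called higher in null and 0.929% lower). At day 2 Tyms was the 1 call. At day 4 the median member of null cells stood 0.49 above Fl/Fl for replication and 0.18 for mitosis, with all genes at 0. Of the replication members 3 were called higher (Mcm2, Cdt1 and Mybl2) and of the mitosis members 0 (4.18% of all genes); Foxm1 was lower, and 3 mitosis members had an unadjusted p under 0.05 in either direction. Mcm2 was higher by 0.76 ± 0.172 (SE), adjusted p = 0.00571, Cdt1 by 0.93 ± 0.242 (SE), adjusted p = 0.0148 and Mybl2 by 0.99 ± 0.257 (SE), adjusted p = 0.0139. In 14 replication and 9 mitosis members every null day 4 array lay above both Fl/Fl arrays, as in 10.4% of all genes. The replication count was 0 without Fl/Fl day 4 replicate 1 and 1 without replicate 2. Without both null day 8 arrays, or either of them, it was 8, with 3 mitosis members (5.5% of all genes without both).

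At day 6 all 20 mitosis and all 19 replication members had a higher mean log2 value in null than in Fl/Fl, Rrm2 by less than the rounding of these values. The medians were 0.72 for replication, a 1.65-fold difference, and 0.78 for mitosis, 1.72-fold. Called higher were 5 replication members (Mcm2, Mcm3, Mcm7, Cdt1 and Mybl2) and 9 mitosis members (Ccnb2, Cdc20, Aurka, Aurkb, Plk1, Bub1b, Cenpa, Kif23 and Mki67), against 3.47% of all genes. The largest called difference was that of Aurkb, 1.33 ± 0.404 (SE), adjusted p = 0.0393, followed by Ccnb2 with 1.12 ± 0.296 (SE), adjusted p = 0.0181, and the smallest adjusted p was that of Cdc20, 0.91 ± 0.147 (SE), adjusted p = 0.000368. In 14 replication and 19 mitosis members every null day 6 array lay above both Fl/Fl arrays, as in 10.2% of all genes. Rrm2 differed by 0.00 (95% interval -0.41 to 0.42) and Rrm1 by 0.03 (-0.25 to 0.32). These counts rest on the pair of Fl/Fl day 6 arrays and on the shared spread. Without Fl/Fl day 6 replicate 1 they were 1 and 2, without replicate 2 they were 0 and 2, and without null day 6 replicate 1 or 4 the mitosis count was 5. Without both null day 8 arrays, or either, 14 replication and 19 mitosis members were called higher (5.13% of all genes without both).

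**Figure D4:**
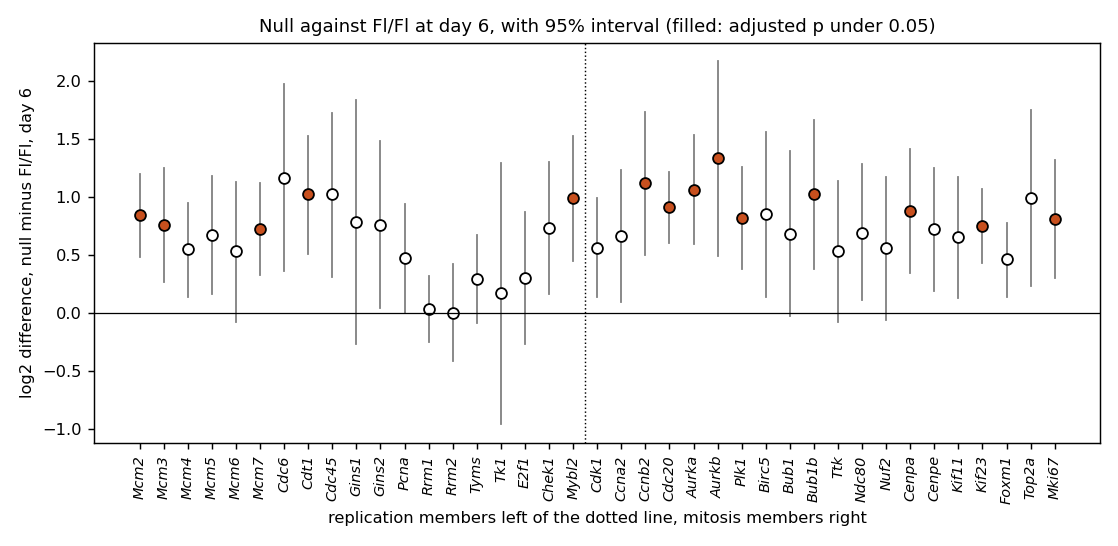
Difference between null and Fl/Fl at day 6 (log2, points) with its 95% interval (lines) for each member, replication left and mitosis right of the dotted line, filled where the adjusted p was under 0.05 in the fit of all 30 arrays. Every mitosis point lies between 0.46 and 1.33, and Rrm1 and Rrm2 lie at 0.03 and 0.00.

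Whether the change from day 0 itself differed was tested with the difference of the changes, null minus Fl/Fl. At day 4 its median was 0.45 for replication and 0.12 for mitosis, and at day 6 it was 0.71 and 0.79, against 0.01 over all genes. With all 30 arrays 0 members were called at days 2, 4 and 8 (0.055%, 0.55% and 0.407% of all genes were called higher), where 1, 3 and 0 replication and 0, 1 and 0 mitosis members had an unadjusted p under 0.05, and 1, Kif23, at day 6 (0.89% of all genes), by 0.93 ± 0.231 (SE), adjusted p = 0.0397. The Kif23 call was lost without any 1 of 11 arrays: either Fl/Fl array of day 0 or of day 6, null day 0 replicate 2 or 3, null day 2 replicate 4 or 5, or null day 6 replicate 3, 4 or 5. Without null day 6 replicate 2, 2 mitosis members were called. Without the null day 8 arrays, or either of them, 5 replication members (Mcm2, Mcm3, Mcm5, Mcm7 and Cdt1) and 0 mitosis members were called higher at day 4, with 0.94% of all genes in the fit without both. At day 6, 8 replication and 11 mitosis members were then called, with 1.85% of all genes. At day 8 the genotypes differed in 0 members by either test, with 2 replication and 3 mitosis members at an unadjusted p under 0.05 in the direct comparison (0.709% of all genes called higher), and without replicate 2 of null day 8 alone 15 replication and 18 mitosis members were called higher directly and 13 and 18 in the difference of changes.

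The null day 8 arrays disagreed in every member. Replicate 1 was the higher in 19 of 19 replication and 20 of 20 mitosis members, by a median of 1.59 and 1.81, where the median over all genes was 0. Against null day 0 replicate 1 had medians of -0.81 and -0.44, a 1.75-fold and a 1.35-fold fall, and replicate 2 had -2.63 and -2.24, a 6.19-fold and a 4.74-fold fall. The widest gap was that of Gins1, at 280 and 22, and among mitosis members that of Aurkb, at 231 and 30. Cdc20 read 2998 and 2625 and Foxm1 163 and 155, the smallest gaps of the mitosis set. Replicate 1 lay below every null day 0 array in 14 replication and 16 mitosis members (28.4% of all genes) and replicate 2 in 19 and 19 (35.2%).

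Replicate 1 lay below every null day 6 array in 7 replication and 12 mitosis members (15.6% of all genes), and replicate 2 in 19 and 20 (22.1%). In 18 of 19 replication and 20 of 20 mitosis members replicate 1 was above both Fl/Fl day 8 arrays (26.3% of all genes), Mybl2 being the exception. Replicate 2 was below both in 19 and 16 (31.4% of all genes). Cdc6 read 818 on replicate 1, inside the 552 to 953 of null day 6, and 128 on replicate 2, near the 135 of both Fl/Fl day 8 arrays. The ES marker sum was 10728 on replicate 1 and 1717 on replicate 2, against 14220 to 21287 at null day 6. The sum of 10 muscle and epithelial markers was 65265 and 124411, with 113906 to 115940 at Fl/Fl day 8. Replicate 1 belonged to the middle Eif2s3y set (365) and replicate 2 to the low one (11). So null day 8 has no array of the high set, and at that day set, marker level and member level cannot be told apart. As a group, 17 replication and 19 mitosis members were called lower than at null day 0 (18.5% of all genes), and 12 and 9 without replicate 2. The group mean describes neither array.

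At day 6 the null arrays of the 3 Eif2s3y sets gave medians of the same sign. Null day 0 stands here for the mean of all its arrays, 2 of the high set and 1 of the middle set. The low set had no day 0 array, so these are not changes within a set. Against null day 0 the replication and mitosis medians at day 6 were -0.74 and -0.13 on the 3 arrays of the high set, -0.53 and -0.02 on the 1 array of the middle set and -0.68 and -0.29 on the 1 of the low set. Against Fl/Fl day 6 they were 0.61 and 0.77, 0.92 and 0.91, and 0.67 and 0.65. At day 4 the high set stood above Fl/Fl by 0.50 and 0.10, the middle by 0.46 and 0.32 and the low by 0.34 and 0.21.

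Marker levels of other cell types also changed. The sum of 15 fibroblast and feeder cell markers was 370 to 729 at Fl/Fl day 0, 2638 to 3155 at day 6, with 5 of the 15 over a mean of 100, and 12820 to 16930 at day 8, where 9 of the 15 were over 100. In null cells it was 258 to 453 at day 6, with 1 of 15 over 100 and 12 under 20. On the null day 0 arrays it was 691 in the middle Eif2s3y set and 157 and 137 in the high set. At null day 6 it was 258 in the middle set, 305 in the low set and 420, 408 and 453 in the high set. The muscle and epithelial sum was 98571 to 115403 at Fl/Fl day 6, with 10 of 10 over 100, and 35001 to 62936 at null day 6, also with 10 of 10. The 12 endoderm markers summed to 442 to 500 and 222 to 1205 at day 6, with 8 and 7 of them under 20. The part of these cells in the fall of the members was not tested. At Fl/Fl day 4 the fibroblast sum was 545 to 588, inside the day 0 range. The muscle and epithelial sum was then 53535 to 54800, against 5293 to 14680 at null day 4. The latter sum already differed at day 0, with 9211 to 13111 in Fl/Fl and 959 to 2132 in null.

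Most of the other genes of both pathways fell as well by day 8. Of 44 further replication genes measured, such as the origin recognition, polymerase and replication factor genes, 1, 17, 35 and 42 were called lower at Fl/Fl days 2, 4, 6 and 8, and 2, 7, 28 and 41 at null days 2, 4, 6 and 8. The smallest adjusted p at Fl/Fl day 4 were those of Ticrr, needed to start origins (-2.39, adjusted p = 1.05e-05), and Dbf4, the activating partner of the Cdc7 kinase (a 1.99-fold fall, adjusted p = 7.09e-05). Of 62 further mitosis genes 0, 11, 39 and 57 were called lower in Fl/Fl and 0, 5, 17 and 49 in null, the last again resting on both null day 8 arrays. Of all genes, 1.91%, 10.5%, 19.2% and 18.6% were called lower in Fl/Fl and 3.02%, 8.34%, 18% and 18.5% in null. The mitosis counts did not exceed that share at day 2 in either genotype or at null day 4. Kif18a, a motor that dampens chromosome movements, fell by 0.87 on the log2 scale at Fl/Fl day 4 (adjusted p = 0.000369) and by 1.77 at day 6. Zwint, a kinetochore gene, was called higher, by 1.43 at Fl/Fl day 4 (adjusted p = 0.00025) and 1.27 at null day 6 (adjusted p = 9.45e-06). At day 6, 12 of 44 and 18 of 62 were called higher in null than in Fl/Fl (3.47% of all genes), and 0 were called lower. Among them were Pola2, a primase-polymerase subunit (0.69, adjusted p = 0.000265), and Tpx2, a spindle assembly factor (0.79, adjusted p = 0.00107).

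Most members were read by more than 1 probe set. Of the 39, 29 had several, and 21 had several with a mean intensity of at least 50. Among these 21 the direction of change at Fl/Fl day 8 was the same for all probe sets of a gene, and at null day 8 it differed for Foxm1 alone. On earlier days more genes differed. At Fl/Fl day 4 the probe set used and another gave -0.41 and 0.06 for Mcm4 and -0.09 and 0.41 for Rrm1. They gave -0.26 and 0.11 for Kif23 and -0.25 and 0.01 for Cenpe. At null day 6 they gave -0.15 and 0.19 for Rrm1, 0.19 and -0.03 for Aurkb and -0.14 and 0.07 for Cenpe. Probe sets of like direction could differ in size. Top2a gave -0.08 and, on a dimmer probe set, -0.99 at null day 6. Rrm1 gave -0.52 and -0.16 at Fl/Fl day 8.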

How the data were processed

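RNA from 30 samples was hybridised to 30 single-colour Affymetrix arrays, 1 per sample. The deposited values are linear intensities for 45101 probe sets on each array, with means of 331.8 to 363.6 per array that were kept. The sources used here do not name the method by which the authors summarised and scaled them. Probe sets were named by the platform's annotation: 34958 name 1 gene, 932 several and 9211 none. Among the probe sets naming only a gene, that with the highest average log2 intensity stood for it (18194 genes). Log2(intensity + 4) was fitted in limma 3.58.1 (R 4.3.3) as 10 group means over all 30 arrays, with Benjamini-Hochberg adjustment over all genes and a threshold of 0.05. The fit was also run on simulated data with the same spread in every group. Such data do not copy the disagreement of the null day 8 arrays, so the run does not test its effect on the calls. Precision is limited by the number of arrays, 2 in each Fl/Fl group.

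The members, gene lists and tests were chosen with earlier results of these data known. All members could be named. Values on every array were printed for 21 listed members, of which Ccnb1 had no probe set, and for those with the largest or smallest fall, a call upward or a call between genotypes. Tk1, without any call in the fit of all arrays, was added after its values were seen. Of other lists up to 4 genes with the smallest adjusted p per comparison could be named. Promoters came from the RefSeq table of GRCm38.p6. Alternatives covered the pseudocount, normalization, dim genes, choice of probe set, replicate number, array sets, array weights, each array left out and the definition of a start.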

Additional observations from a re-analysis of the deposited data

Results flagged for a closer look

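In 117 groups of 5 null values (39 members at days 2, 4 and 6), 7 held an array far from the other 4 by Dixon's test, which chance gives in about 1 in 20 groups. Foxm1 read 125 on null day 2 replicate 5, where the others read 161 to 165, and 203 on null day 4 replicate 4, where the others read 162 to 167. Replicate 1 of null day 4 was high for Tyms (73, the others 47 to 52) and for Top2a (5339, the others 3147 to 3580). Mcm3 read 2148 on null day 6 replicate 2, where the others read 2578 to 2743. Replicate 1 of null day 6 was high for Cdk1 (3524, the others 2952 to 3087) and for Bub1b (933, the others 608 to 671). Both of these replicate 1 arrays belong to the set of null arrays with middle Eif2s3y. The change of Kif23 from day 0 to day 6 differed between the genotypes by 0.93 (log2, null minus Fl/Fl, adjusted p = 0.0397 by limma's interaction contrast, all 5 null day 6 arrays above both Fl/Fl arrays).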

How the results depend on the processing

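Counts are of members called, replication before mitosis where both are given. The share of all genes called in each setting is not given in this section. A shift in these counts therefore does not show that the members moved more than other genes. The pseudocounts of 1 and 16, quantile normalization and leaving out the 40% dimmest genes kept every count within 1.5 times. Centring on brighter genes gave 9 replication members higher in null at day 6. With the mean over probe sets, 2 replication members were lower at Fl/Fl day 2, 0 mitosis members were lower or had started by Fl/Fl day 4, and 2 mitosis members differed in their change at day 6. With the second brightest probe set, 0 replication members were lower at Fl/Fl day 2 and 1 at null day 2, and 6 mitosis members were lower at Fl/Fl day 6. It left 0 replication members higher in null at day 2, 1 and 5 at day 6, and 1 mitosis member at day 8.

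Replicate numbers were not taken to pair the arrays, since not every same-numbered pair deviated together. The correlation of deviations ran from -0.006 to 0.2 in Fl/Fl cells (4 of 20 pairs over 0.1). In null cells it ran from -0.362 to 0.556, with a median of 0.227 and 24 of 32 over 0.1, against a median of -0.061 for arrays of unlike number. With the replicate number as a block, 2 replication members instead of 5 were higher in null at day 6 and 1 mitosis member at day 8, and no other count moved by over 1.5 times.

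Settings that remove or weight down the null day 8 arrays gave more calls. Without both, the members called lower were 3 and 2 at Fl/Fl day 2, 12 and 6 at day 4, 1 mitosis member at null day 2, 10 and 5 at null day 4 and 7 mitosis members at null day 6. Members higher in null were 8 and 3 at day 4 and 14 and 19 at day 6. The change differed for 5 replication members at day 4 and for 8 and 11 at day 6. Starts by Fl/Fl day 4 were 12 and 6 and mitosis starts by null day 6 were 7. With array weights, 4 mitosis members were lower at Fl/Fl day 4, 5 and 5 at null day 4 and 5 mitosis members at null day 6. Members higher in null were 8 and 2 at day 4 and 14 and 20 at day 6, the change differed for 3 replication members at day 4 and for 7 and 10 at day 6, and mitosis starts were 4 by Fl/Fl day 4 and 5 by null day 6.

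With only the null arrays of high Eif2s3y, of which none is from day 8, 6 and 3 members were lower at Fl/Fl day 2, 15 and 7 at day 4, 4 and 1 at null day 2, 9 and 6 at null day 4 and 8 mitosis members at null day 6. Members higher in null were 1 mitosis member at day 0, 3 and 2 at day 2, 11 and 7 at day 4 and 13 and 19 at day 6. The change differed for 8 and 2 at day 4 and 11 and 16 at day 6, and starts were 15 and 7 by Fl/Fl day 4 and 8 for mitosis by null day 6. With the Eif2s3y set as a term, 2 replication members were lower at Fl/Fl day 2 and 2 mitosis members were lower and had started by day 4. Members higher in null were 1 mitosis member at day 2, 5 and 1 at day 4, 9 replication members at day 6 and 1 and 2 at day 8. The change differed for 2 replication members at day 4, 3 and 4 at day 6 and 1 mitosis member at day 8.

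With a start by fold, 11 and 5 members had started by Fl/Fl day 4. With a start by separate arrays, 16 and 14 had, and 5 mitosis members by null day 6. In the 250 bases before the start alone 41.2% of mitosis promoters held CHR letters.

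With 1 array left out at a time, the members called lower ranged from 1 to 3 and 0 to 2 at Fl/Fl day 2, 4 to 12 and 0 to 6 at day 4, 12 to 16 and 8 to 17 at day 6 and 15 to 18 and 18 to 19 at day 8. They ranged from 1 to 3 and 0 to 1 at null day 2, 2 to 10 and 0 to 5 at day 4, 9 to 14 and 2 to 7 at day 6 and 12 to 18 and 9 to 19 at day 8. Members higher in null ranged from 0 to 1 for replication at day 2, 0 to 8 and 0 to 3 at day 4, 0 to 14 and 2 to 19 at day 6 and 0 to 15 and 0 to 18 at day 8. The change differed for 0 to 5 replication members at day 4, 0 to 8 and 0 to 11 at day 6 and 0 to 13 and 0 to 18 at day 8. Starts ranged from 4 to 12 and 0 to 6 by Fl/Fl day 4 and from 9 to 14 and 2 to 7 by null day 6. A lone array left in a group was assumed to vary like the other groups. Of 148 called member results 73 kept their call in every setting. 3 reversed, all at null day 8 against null day 0 when 1 of its arrays stood for the day: Cdc6 ranged from -2.5 to 0.14, Aurkb from -2.7 to 0.09 and Top2a from -2.38 to 0.06, the higher value being that without replicate 2.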
